A study of Rattus norvegicus with 84 samples.

Results

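Interferon response genes are the genes that a cell switches on after it has sensed an interferon. The interferon response genes followed here are Irf7, Stat2, Isg15, Usp18, Mx1, Mx2, Ifit2, Ifit3 and Oasl. They were chosen by name, with earlier results of these data known. All 9 were found by symbol among the 18782 annotated genes of the mRNA count table. mRNA was sequenced from extracellular vesicles (EVs), small membrane-bound particles that cells release, taken from the ipsilateral hemisphere and from the plasma of 21 adult male Sprague-Dawley rats of 8 to 12 weeks. A healthy group of 3 rats received neither stroke nor injection. The other 18 rats had a transient occlusion of the right middle cerebral artery for 90 min and an intra-arterial injection through the carotid artery 3 days later, of saline in the 9 rats of the control group and of 200000 human neural stem cells (hNSCs) in the 9 rats of the hNSCs group. Both were sacrificed at 4, 10 or 31 days poststroke, which is 1, 7 or 28 days after the injection, with 3 rats for each group and day. Each rat gave 1 brain and 1 plasma library, 42 in all. The hNSCs came from 1 line of human fetal telencephalon. The control rats carried the stroke and the saline injection, so that stroke and the act of injection are shared by both groups. The authors' supplementary methods name a glucose buffer for the cells, so the injected fluid may differ between the groups.

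Type I interferons are released by cells that detect viral or misplaced nucleic acid, and they act on the same or a neighboring cell through a receptor whose kinases phosphorylate signal carriers such as STAT2. With IRF9, STAT2 is part of a complex that enters the nucleus and binds the interferon-stimulated response element (ISRE) near its target genes. In the brain, microglia and astrocytes respond to interferon, and the response has been described after ischemia and in the aged brain.

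The 9 genes take different places in this pathway. Irf7 encodes the transcription factor that amplifies interferon production, and Stat2 encodes the signal carrier itself. Isg15 encodes a ubiquitin-like modifier, and Usp18 encodes the protease that removes it and that also dampens the receptor. Mx1, Mx2, Ifit2, Ifit3 and Oasl encode antiviral effectors, of which the Mx proteins are dynamin-like GTPases, the Ifit proteins bind RNA, and the Oasl protein belongs to the oligoadenylate synthetase family. Mx1 with Mx2 and Ifit2 with Ifit3 are close relatives, and how reads shared by relatives were counted is not given in the sources used here, so the split within each pair is uncertain.

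RefSeq windows of 300 bases around the annotated start (build GRCr8) were at hand for 5 of the 9 genes, Irf7, Stat2, Mx1, Ifit3 and Oasl. The ISRE core was searched on either strand as the letters GAAA, any 2 bases and GAAA again, which on the other strand read TTTC, any 2 bases and TTTC. It was found in Irf7 and in Ifit3 and in neither Stat2, Mx1 nor Oasl, against 3.92% of all 33469 windows. The interferon gamma element (GAS, letters TTCNNNGAA) was in none of the 5 windows and in 8.87% of all windows. The 2 matches are shown because they are the letters to which the complex of STAT2 and IRF9 is known to bind, with the match in capitals. They lie at positions -69 to -60 from the start of Irf7 (shown: chr1:205800073-205800102, minus strand) and -44 to -35 from that of Ifit3 (chr1:241527272-241527301, plus strand).
Irf7: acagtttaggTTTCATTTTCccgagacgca
Ifit3: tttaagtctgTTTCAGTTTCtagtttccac
Both carry the core on the opposite strand, so that the capitals read TTTC rather than GAAA. Of Isg15, Usp18, Mx2 and Ifit2 no window is shown.

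Brain libraries held between 13221461 and 37651652 counts, of which only 3.18% to 51.9% fell on annotated genes, and plasma libraries between 11878367 and 49824782 counts with 45.1% to 75.6%. Levels below are counts of a gene per 1000000 counts on annotated genes (CPM) after TMM scaling, a scaling that makes most genes equal between libraries. A count of 0 allows up to 0.184 to 4.52 CPM in a brain library, depending on its depth, and up to 0.0851 to 0.381 CPM in a plasma library, at 3 counts per library and for counting error only. The annotated counts of the brain libraries ranged from 1403190 to 4498193 in the healthy group, from 3428151 to 6105035 in the control group at 4 days, from 1500439 to 2317700 at 10 days and from 6379318 to 15587216 at 31 days. The third hNSCs library of day 10 in brain had the smallest annotated share, 3.18%. In bulk EV RNA, fewer vesicles of a cell type and less of an mRNA per vesicle cannot be told apart.

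Before stroke, brain-derived EVs carried little mRNA of these genes apart from Stat2. Irf7 was at 0, 0 and 3.66 CPM in the 3 healthy rats, Mx1 at 0, 4.65 and 0 CPM, and Ifit2 at 0, 3.54 and 2.81 CPM. Isg15 rested on a single count over the healthy group, Oasl had none, and Mx2 reached 34.0 CPM in 1 rat. Stat2 was present in every healthy rat, at 109, 55.8 and 107 CPM.

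At 10 days poststroke, the control group carried more of the mRNA of most of these genes than the healthy group in brain-derived EVs, with Irf7, Mx1, Mx2 and Ifit2 above every healthy rat, but none of the differences passed the test across all genes. All 8 genes that could be tested had a fitted log2 fold change above 0, as 49.7% of all 14515 genes tested did, with a median of 4.22 against 0.00 over all genes. A gene was called when its change exceeded 1.5-fold and its p from edgeR's quasi-likelihood test, adjusted by Benjamini-Hochberg over all genes, was below 0.05. By this rule 0 of the 8 were called, where 0.572% of all genes were. At an unadjusted p under 0.05, 5 of the 8 were higher (Irf7, Isg15, Mx1, Mx2 and Ifit2), against 7.54% of all genes, and 0 were lower, against 5.13%. The groups did not overlap for 4 of the 8, all above the healthy rats, against 7.05% of all genes. Oasl had no counts in either group and did not pass the filter on low counts.

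Irf7, the amplifier of interferon production, was at 23.4, 179 and 270 CPM in the 3 control rats at 10 days. Every one of them exceeded the highest healthy rat, and the first was far below the other two. The mean of 158 ± 125 CPM (SD, n = 3) stood against 1.22 ± 2.11 CPM in healthy rats, a log2 fold change of 6.85 (SE 1.71, edgeR adjusted p = 0.071). At 4 days it was 0, 24.1 and 0 CPM and at 31 days 17.6, 29.8 and 12.0 CPM. At 4 days the control group thus overlapped with the healthy group, and at 31 days it lay above it, with log2 fold changes of 2.54 (SE 1.49) and 3.87 (SE 1.53).

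Mx2, one of the antiviral GTPases, was at 57.5, 384 and 264 CPM at 10 days, against 0, 16.4 and 34.0 CPM in healthy rats (log2 fold change 3.75, SE 1.01, edgeR adjusted p = 0.099). Its relative Mx1 was at 24.7, 71.3 and 140 CPM (log2 fold change 5.48, SE 1.92, edgeR adjusted p = 0.24). For both, the first control rat was the lowest of the 3 and still above every healthy rat. At 31 days Mx2 was at 60.2, 96.8 and 74.9 CPM and Mx1 at 16.03, 28.3 and 9.46 CPM, again without overlap with the healthy group. At 4 days Mx2 was at 26.4, 50.0 and 5.85 CPM and Mx1 at 0, 34.8 and 0 CPM, and both overlapped with it.

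Ifit2, which binds RNA, was at 7.67, 61.6 and 59.9 CPM at 10 days (log2 fold change 4.26, SE 1.60, edgeR adjusted p = 0.27). Ifit3 was at 3.84, 15.9 and 33.3 CPM, where the lowest control rat was below the highest healthy rat at 6.64 CPM (log2 fold change 2.89, SE 1.84, edgeR adjusted p = 0.60). At 31 days Ifit3 lay within a narrow range, at 10.9, 12.1 and 10.9 CPM, and Ifit2 at 13.4, 10.2 and 8.20 CPM. At that day both genes were above every healthy rat.

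Isg15 was carried by some rats and not by others. At 10 days it was at 0, 9.79 and 18.6 CPM and at 31 days at 4.62, 9.24 and 0 CPM, while the control group at 4 days had no counts. Over the group at 10 days its level was 77.3 times the healthy level, but that level rests on 1 count, and the 95% counting interval of the ratio runs from 13.2 to 3116. Its protease Usp18 was at 3.41, 0 and 57.9 CPM at 10 days, so that 1 rat carried nearly all of it, and at 12.1, 11.0 and 5.36 CPM at 31 days, above the healthy rats (0, 3.10 and 0 CPM). Usp18 had no counts in the control group at 4 days, which is at least 6.81-fold lower than in the healthy group at a floor of 3 counts over the group. This bound rests on the 14 counts of 1 healthy rat, since the other two had none.

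Stat2, the signal carrier, did not follow the others. In the control group it was at 79.1, 67.0 and 93.8 CPM at 4 days, at 84.8, 138 and 92.5 CPM at 10 days and at 56.3, 82.4 and 70.5 CPM at 31 days. All overlapped with the healthy rats, with log2 fold changes of -0.18 (SE 0.71), 0.22 (SE 0.71) and -0.37 (SE 0.71). Oasl was seen in brain only at 31 days, at 1.42, 1.58 and 1.89 CPM in the control group, at least 4.92-fold higher than the floor of 3 counts allows for the healthy group. These are the deepest brain libraries, and their levels lie under the limit that a count of 0 allows in the shallowest ones.

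**Figure D1:**
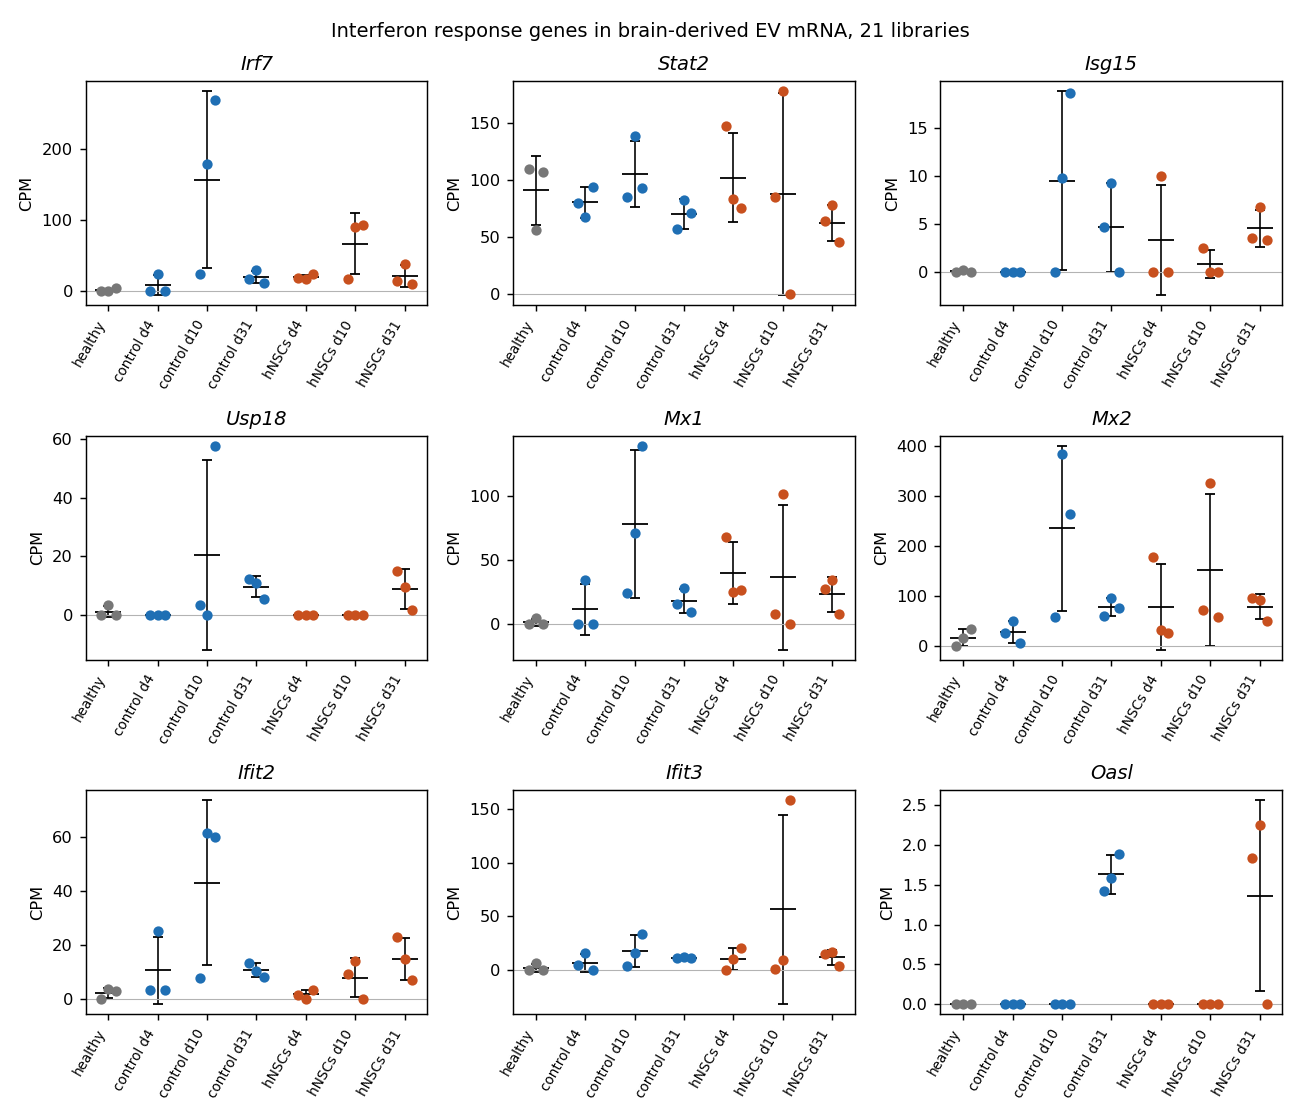
CPM of each gene in brain-derived EVs, 1 panel per gene, with the 7 groups on the horizontal axis, 1 point per rat, and the mean and SD of 3 rats as a line with bars. The control rats at 10 days spread widely for most genes, for Irf7 from 23.4 to 270 CPM, while healthy rats lie at or near 0 for all genes but Stat2 and Mx2.

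At 4 days, 0 of the 8 tested genes were called against 0.861% of all genes, and no group of control rats was set apart from the healthy rats for any of them, which happened upward in 13.9% of all genes. Their median log2 fold change was 1.07, or 1.49 over 7 genes when Usp18 is placed at its bound and Isg15 is left out, against 0.05 over all genes. At an unadjusted p under 0.05, 0 were higher (8.52% of all genes) and Usp18 was lower (6.31% of all genes), and neither DESeq2 nor limma on FPKM called any of the 8.

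At 31 days, 0 of the 8 tested genes were called against 0.00689% of all genes, and Irf7 and Mx2 were higher at an unadjusted p under 0.05 (2 of 8, 5.3% of all genes, with 1.84% of all genes lower). The control rats lay above every healthy rat for 6 of the 8, all but Stat2 and Isg15, while 18.9% of all genes did so. The median log2 fold change was 2.66 against 0.24 over all genes. DESeq2 called none of the 8, and limma on log2(FPKM + 1) called 7. On that scale 8282 of 14453 genes were called and the median of all genes was 0.69, beside a median of 0.71 for the 8.

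Whether the level in the control group differed between 4, 10 and 31 days was tested with 1 F test per gene. None of the 8 genes passed (0.31% of all genes did), with unadjusted p of 0.0099 for Irf7, 0.011 for Mx2, 0.015 for Usp18 and 0.029 for Isg15 in edgeR's quasi-likelihood test and adjusted p between 0.33 and 0.46 for these. That is 4 of the 8 at an unadjusted p under 0.05, against 9.39% of all genes. DESeq2 called none of them and limma on log2(FPKM + 1) called 4. Without the second control rat of day 4, Irf7 passed at an edgeR adjusted p of 0.033, as 1 of 20 among all 14886 genes.

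With the 3 control groups averaged and set against the healthy group, 0 of the 8 genes were called (0.186% of all genes) and 4 were higher at an unadjusted p under 0.05 (7.05% of all genes). These were Irf7 (log2 fold change 4.42, SE 1.47, edgeR adjusted p = 0.18), Mx1 (3.85, SE 1.68), Mx2 (2.18, SE 0.86) and Ifit2 (2.91, SE 1.39). Stat2 was at -0.11 (SE 0.58), and DESeq2 called Irf7.

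Whether genes were called at 10 days depended on single rats, while the direction of Irf7 and Mx2 did not. With each of the 6 rats left out in turn, log2 fold changes ran from 6.12 to 12.6 for Irf7. For Mx2 they ran from 3.12 to 4.60. Without the first control rat of day 10, which was the lowest of the 3 for Irf7, Mx1, Mx2, Ifit2 and Ifit3, edgeR called Irf7 (log2 fold change 7.38, adjusted p = 0.022) and Mx2 (4.24, adjusted p = 0.026). That fit called 367 of all 14893 genes, where the main fit called 83 of 14515. Leaving out any other of the 6 rats left 0 called, with edgeR adjusted p for Irf7 between 0.14 and 0.38. Those fits called between 0 and 56 of all genes. DESeq2 called Irf7, Mx2 and Ifit2 with all 6 rats, where it called 613 of 14515 genes.

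Markers of brain cell types moved in the same libraries. The summed level of 12 microglia and macrophage markers was 147, 83.3 and 90.0 CPM in healthy rats and 245, 2268 and 941 CPM in the control group at 10 days. Of the 12, 4 were called higher (C1qa, C1qb, C1qc and Csf1r), where 0.572% of all genes were called. The median log2 fold change of the 12 was 3.02. The control rat with the lowest sum was the one with the lowest Irf7, Mx1, Mx2 and Ifit2. At 4 days the same sum was 639 to 1343 CPM, while Irf7 was at 0 CPM in 2 of the 3 rats. At that day C1qb and C1qc were called higher (0.861% of all genes were called), and the median log2 fold change of the 12 was 2.73. At 31 days the sum was 229 to 454 CPM.

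Other markers at 10 days also differed between rats. The summed neuron markers were 7902, 2675 and 4881 CPM in the 3 control rats against 6592 to 8973 CPM in healthy rats, and 5 monocyte markers were at 9.80, 375 and 74.5 CPM against 4.87 to 18.0 CPM. Gfap, the astrocyte filament, was called higher at all 3 days as the only 1 of 5 astrocyte markers. Of all genes, 0.861%, 0.572% and 0.00689% were called at 4, 10 and 31 days. The astrocyte list summed to 2327 to 3749 CPM at 10 days against 1129 to 1281 CPM, but its median log2 fold change was 0.11. T cell and B cell markers had no counts in any of the 6 rats. The plasmacytoid dendritic cell list summed to 308 to 576 CPM against 184 to 288 CPM, with a median log2 fold change of 4.15 over the 3 markers tested, of which 1 was called (Irf8). Siglech and Spib, which define that cell type, had no counts in the 6 rats. The part of these cell types in the levels of the interferon response genes was not tested.

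A wider list of 117 other interferon pathway genes, which does not hold the 9, was matched without regard to letter case, and 110 were in the table. In brain 94 could be tested. At 10 days, 1 was called (0.572% of all genes), 37 were higher and 0 lower at an unadjusted p under 0.05 (7.54% and 5.13% of all genes), and their median log2 fold change was 2.64 against 0.00 over all genes. At 4 days 0 were called (0.861%) and 23 were higher and 2 lower (8.52% and 6.31%), with a median of 1.28 against 0.05. At 31 days 0 were called (0.00689%) and 22 were higher and 0 lower (5.3% and 1.84%), with a median of 1.89 against 0.24.

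The gene called at 10 days was Irf8, a transcription factor that microglia and other myeloid cells need for their development. It was at 0, 14.2 and 17.2 CPM in healthy rats and at 36.2, 334 and 219 CPM in the control group, with no overlap (log2 fold change 4.15, SE 0.89, edgeR adjusted p = 0.036). It also stands in the list of plasmacytoid dendritic cell markers.

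No interferon passed the filter in either tissue. Of 11 listed ligands 5 were in the table. Ifng, which encodes interferon gamma, had 0 counts in all 21 brain libraries and counts in 1 plasma library, and Ifnb1, which encodes interferon beta, was seen in 1 library of each tissue, with 2 counts in brain. Ifna11 was seen in 7 of 21 brain libraries and in no plasma library. It reached 18.0 CPM in 1 control library of day 10, and no other brain group exceeded 0.866 CPM. Ifna4 was seen in 2 brain libraries and 1 plasma library and Ifne in 1 of each. For these genes the depth limits what can be said.

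Of the 16 receptors and signalling genes tested in brain, 7 were higher at 10 days at an unadjusted p under 0.05, against 7.54% of all genes. The median log2 fold change was 1.74 against 0.00 over all genes. Irf9, the DNA-binding subunit of the complex that holds Stat2, had a log2 fold change of 2.50 (SE 0.85, edgeR adjusted p = 0.22). Ifnar1, the receptor chain for type I interferons, had one of 0.76 (SE 0.52, edgeR adjusted p = 0.65).

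Of 12 sensors of nucleic acid and their adaptors, 5 were higher at 10 days at an unadjusted p under 0.05 (7.54% of all genes), and 0 were called (0.572%). Tlr7, which detects single-stranded RNA in endosomes, had no counts in healthy rats and lay between 11.1 and 62.0 CPM in the control group (edgeR adjusted p = 0.080). Zbp1, which detects left-handed nucleic acid, had none in healthy rats or in the control group at 4 days and lay between 8.10 and 35.0 CPM at 10 days. Among the 66 other interferon-stimulated genes tested, 25 were higher and 0 lower at that p (7.54% and 5.13% of all genes), with a median log2 fold change of 3.33 against 0.00.

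**Figure D2:**
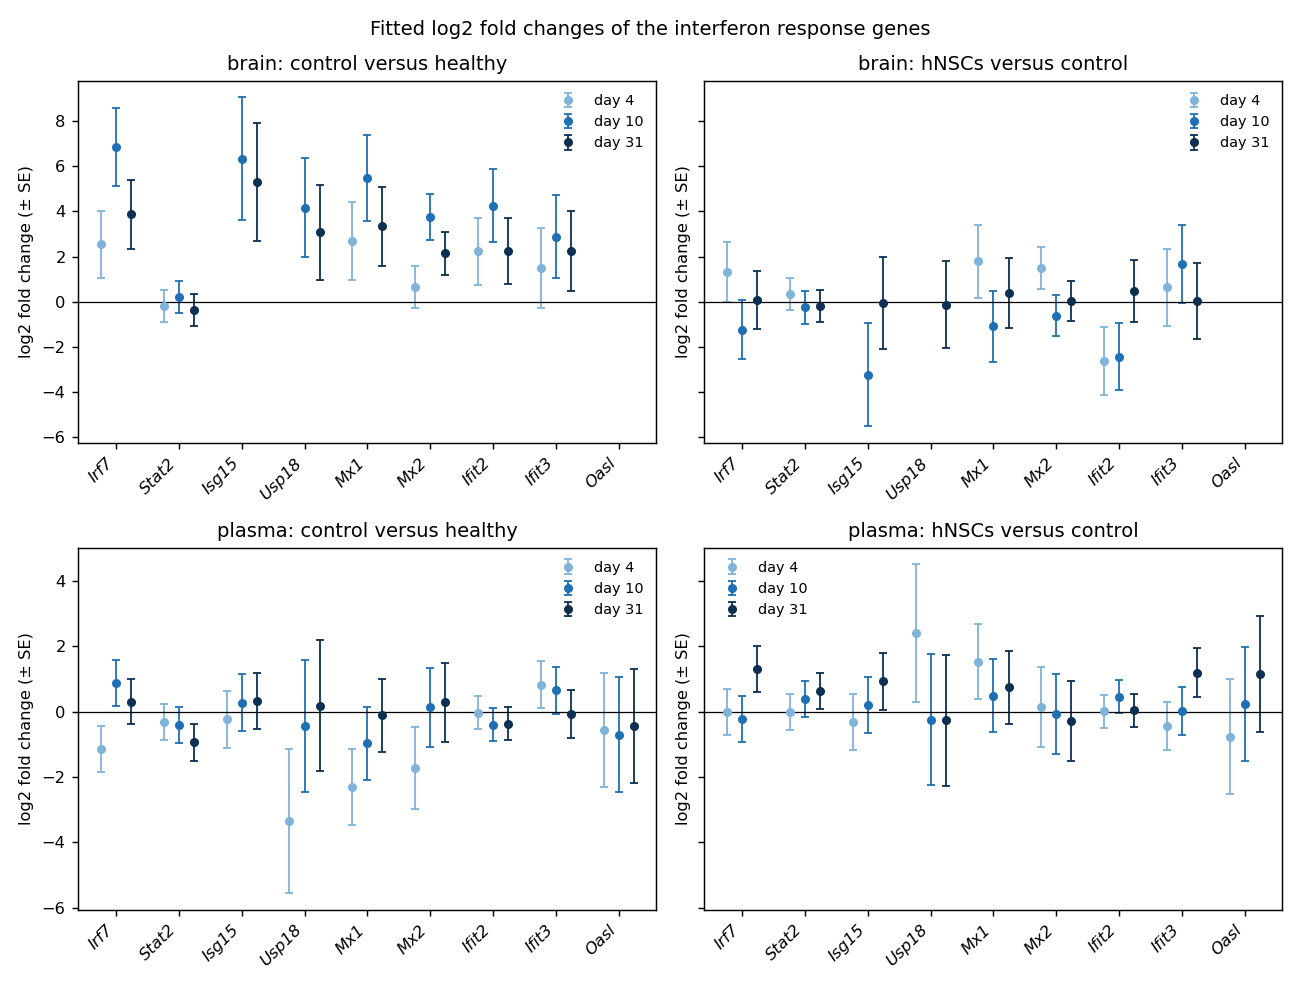
Fitted log2 fold changes (edgeR) of each gene, with SE as bars, for brain (top) and plasma (bottom), of the control group against healthy rats (left) and of hNSCs against control (right), at 4, 10 and 31 days. A gene is not drawn where 1 of the groups compared had no counts, and Oasl was not tested in brain. Among the values drawn for brain, those of the control group at 10 days reach 6.85 for Irf7, and none passed the test.

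The hNSCs groups were set against the control groups of the same day to see whether the transplant changed these levels in brain-derived EVs. None of the 8 tested genes was called at 4, 10 or 31 days, and at none of these days did edgeR call any gene (0% of all genes), nor did DESeq2 or limma call any of the 8. For all 8 genes the groups overlapped at each day, while of all genes 2.62%, 1.61% and 3.29% lay above every control rat at 4, 10 and 31 days and 6.82%, 7.06% and 2.67% below. With the 3 days averaged 0 were called (0% of all genes) and 0 had an unadjusted p under 0.05 (7.68% of all genes).

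At 4 days the median log2 fold change of hNSCs against control was 0.97 (all genes -0.11), or 1.30 over 7 genes with Isg15 at its bound and Usp18 left out. Irf7 was at 17.7, 17.4 and 23.4 CPM, within the spread of the control group (log2 fold change 1.30, SE 1.33). Mx1 was at 68.1, 25.0 and 26.8 CPM and Mx2 at 178, 31.3 and 26.5 CPM. Isg15 was present in 1 of the 3 hNSCs rats, at 9.96 CPM, and in none of the control rats, which gives a level at least 18.1-fold higher than the floor of 3 counts, from that 1 rat alone, and it was the only gene with an unadjusted p under 0.05 (1 of 8, against 1.98% of all genes in that direction).

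At 10 days the median was -1.17 (all genes -0.34), and 1 of the 8 genes lay above 0, as did 33.4% of all genes. Irf7 was at 17.0, 90.5 and 93.4 CPM (log2 fold change -1.24, SE 1.31), Mx2 at 72.4, 327 and 57.3 CPM (-0.63, SE 0.91) and Ifit2 at 9.23, 14.2 and 0 CPM (-2.43, SE 1.48, edgeR adjusted p = 0.49). The hNSCs rats spread over much of the range of the control rats. Usp18 had no counts in the hNSCs group, at least 24.3-fold lower, and this bound comes from the 1 control rat at 57.9 CPM. It was the only gene with an unadjusted p under 0.05 (1 of 8, against 10.8% of all genes in that direction). In the wider list 0 of 94 were higher at that p (2.59% of all genes) and 20 were lower (10.8%). At 4 days 8 were higher (1.98%) and 8 lower (5.55%) and at 31 days none of the 94 passed unadjusted, and none was called at any of these days.

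The third hNSCs library of day 10, with the smallest annotated share, held both the highest level of Ifit3 in brain (158 CPM against 1.42 and 9.76 CPM in its group) and no counts of Stat2, Mx1 or Ifit2. Without it the log2 fold change of Ifit3 turned from 1.67 (SE 1.74) to -1.63 (SE 2.07) and that of Stat2 from -0.25 (SE 0.71) to 0.38 (SE 0.41), and 0 genes of the 8 were called.

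At 31 days the hNSCs and control groups were close. The log2 fold changes lay between -0.17 and 0.48, with SE between 0.71 and 2.03, and 0 of the 8 genes had an unadjusted p under 0.05 (0.0896% of all genes). Irf7 was at 14.5, 38.8 and 9.80 CPM and Mx2 at 94.9, 92.3 and 49.0 CPM. With SE of this size, changes of a few fold in either direction would not have been detectable. Whether the difference between hNSCs and control changed with the day was tested by interaction, with 0 of 8 called (0% of all genes) and 1 unadjusted p under 0.05 (6.18% of all genes), that of Isg15 at 0.030 (edgeR adjusted p = 0.78).

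In plasma-derived EVs all 9 genes passed the filter, and all were present before stroke. Healthy rats carried Irf7 at 352, 86.5 and 329 CPM, Mx1 at 252, 50.8 and 151 CPM and Ifit3 at 89.9, 41.9 and 143 CPM. The second healthy rat was the lowest of the 3 for each of the 9 genes.

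At 4 days poststroke, 1 of the 9 genes had a log2 fold change above 0 in the control group, as did 43% of all genes, with a median of -0.55 (all genes -0.12). None was called with edgeR (0.0679% of all genes), 0 had an unadjusted p under 0.05 (5.86% of all genes), and neither DESeq2 nor limma called any. Usp18 was at 0, 0 and 5.84 CPM against 20.4, 10.0 and 29.6 CPM in healthy rats (log2 fold change -3.36, SE 2.20, edgeR adjusted p = 0.80). Mx2 was at 44.0, 3.98 and 37.9 CPM against 136, 60.5 and 84.9 CPM (-1.71, SE 1.25, edgeR adjusted p = 0.92). For these 2 the control rats lay below every healthy rat, as 8.4% of all genes did.

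Mx1 overlapped with the healthy group in 1 rat, at 24.4, 0 and 67.1 CPM (log2 fold change -2.31, SE 1.17, edgeR adjusted p = 0.74), and Irf7 was at 183, 57.6 and 108 CPM (-1.14, SE 0.70, edgeR adjusted p = 0.76). Ifit3 went the other way, at 234, 129 and 125 CPM (0.83, SE 0.73, edgeR adjusted p = 1). In the same libraries the T cell markers summed to 19.2 to 91.0 CPM against 219 to 358 CPM in healthy rats and the B cell markers to 13.0 to 25.5 CPM against 44.3 to 120 CPM, while the neutrophil markers summed to 589 to 2491 CPM against 151 to 259 CPM. The red cell markers summed to 11650 to 21378 CPM against 43437 to 79049 CPM. The part of these cell types in the plasma levels was not tested.

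Of the wider list 105 genes were tested in plasma and none was called between control and healthy or hNSCs and control at any day. At an unadjusted p under 0.05, 4 were higher and 7 lower in the control group at 4 days (5.86% of all genes in either direction), 1 and 3 at 10 days (5.6%) and 1 and 2 at 31 days (4.75%). For hNSCs against control these were 4 and 1 at 4 days (3.94%), 2 and 0 at 10 days (4.06%) and 3 and 4 at 31 days (8.57%).

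At 10 and 31 days the plasma levels of the control group were spread around those of healthy rats. The median log2 fold change was -0.40 at 10 days (all genes -0.22) and -0.07 at 31 days (all genes -0.09), with 0 of 9 genes called at either day (0% of all genes) and 0 with an unadjusted p under 0.05 (5.6% and 4.75% of all genes). With the 3 days averaged 0 were called (0% of all genes) and 0 passed unadjusted (9.61% of all genes). DESeq2 and limma called none at either day. Irf7 was at 209, 822 and 378 CPM at 10 days and at 76.9, 205 and 667 CPM at 31 days. Mx1 at 31 days ranged from 33.7 CPM to 339 CPM, and the third rat of that group was the highest of its group for all 9 genes.

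By the F test over the 3 control groups, 0 of the 9 differed between days (0.279% of all genes). Irf7 alone had an unadjusted p under 0.05, at 0.036 (edgeR adjusted p = 0.68), against 6.68% of all genes.

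**Figure D3:**
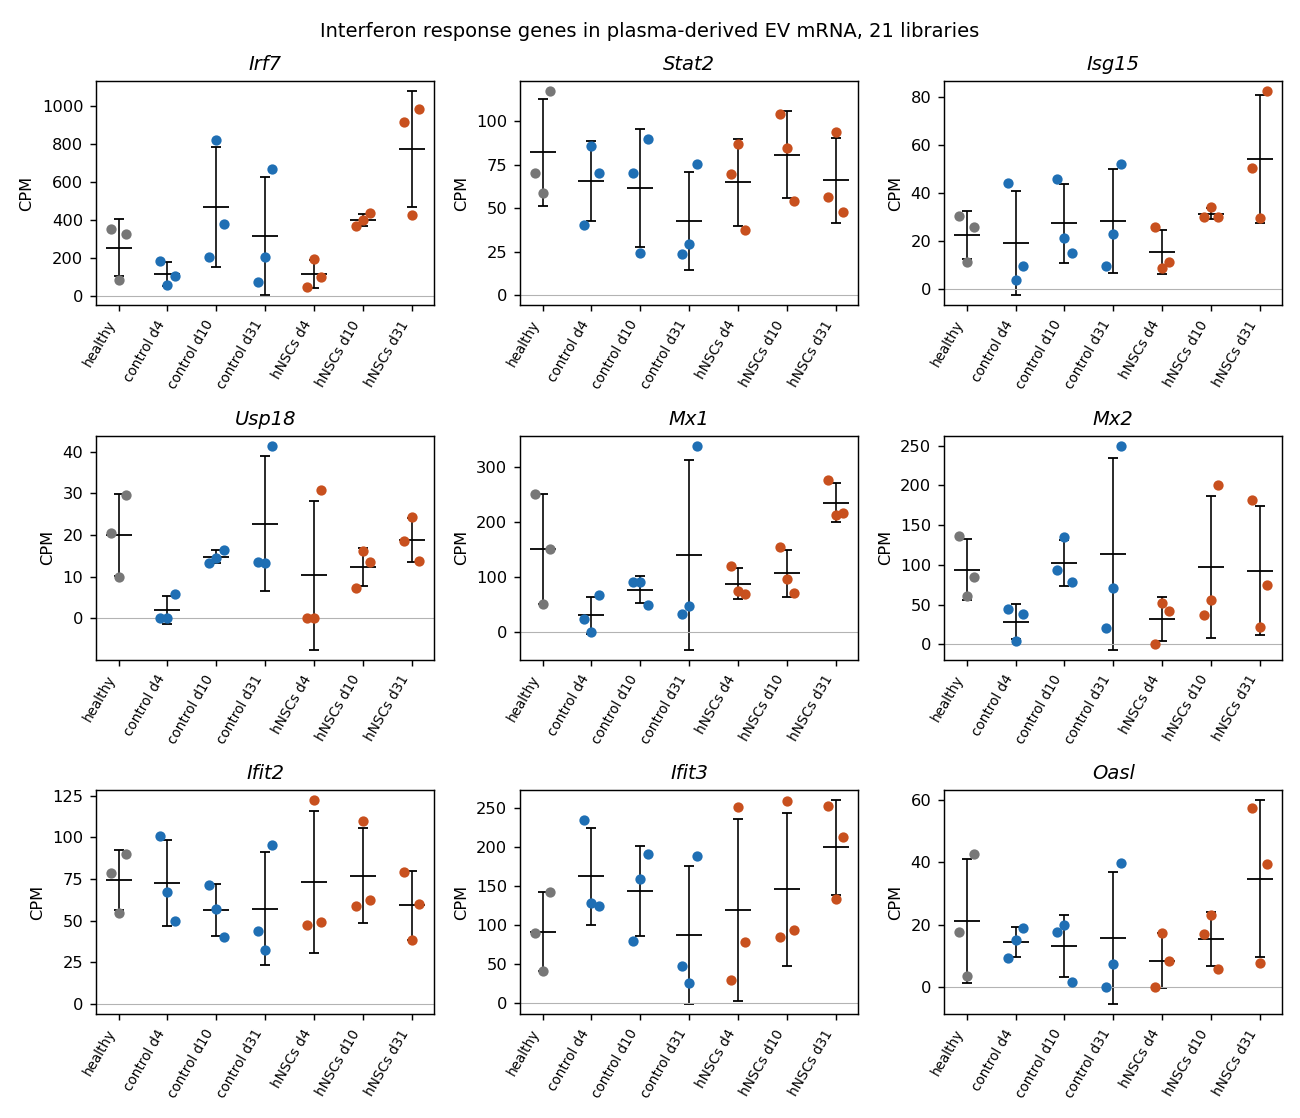
CPM of each gene in plasma-derived EVs, drawn as for brain, with 7 groups, 1 point per rat and the mean and SD of 3 rats. The groups overlap for most genes, Usp18 and Mx2 are low in the control group at 4 days, and Irf7 in the hNSCs group at 31 days lies between 426 and 982 CPM.

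In plasma, none of the 9 genes was called by edgeR between hNSCs and control at 4 days (0.00679% of all genes), at 10 days (0%) or at 31 days (0%), and none by DESeq2 or limma. At an unadjusted p under 0.05 there were 0 of 9 at each of these days, against 3.94%, 4.06% and 8.57% of all genes. With the 3 days averaged 0 were called (0%) and 0 passed unadjusted (6.53%), and in the interaction with the day 0 were called (0.00679%) and 0 passed unadjusted (8.5%). At 4 days Mx1 was at 120, 74.1 and 69.6 CPM, above every control rat, as 3.34% of all genes were (log2 fold change 1.53, SE 1.14, edgeR adjusted p = 1). At 10 days the log2 fold changes lay between -0.25 and 0.48.

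At 31 days the median log2 fold change was 0.75 (all genes -0.10), and 7 of the 9 lay above 0, against 41.5% of all genes. Irf7 was at 914, 426 and 982 CPM (log2 fold change 1.29, SE 0.70, edgeR adjusted p = 0.52), Ifit3 at 252, 133 and 213 CPM (1.20, SE 0.74, edgeR adjusted p = 0.57) and Oasl at 57.3, 7.65 and 39.4 CPM (1.15, SE 1.77, edgeR adjusted p = 1). Each of these overlapped with the control group through its highest rat. The red cell markers summed to 194364 to 305883 CPM in these hNSCs libraries, against 55752 to 151257 CPM in the control group.

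Whether stroke changed the levels differently in plasma and brain was tested as a difference of the differences, with both tissues in 1 model. Oasl had no counts in brain in healthy rats or in the control group at 4 and 10 days, so that its difference restates the plasma value and is left out of the count and the median. At 10 days 0 of the other 8 differences were above 0, against 40% of all genes, that is, the change was lower in plasma than in brain for all 8, with a median of -4.47 (all genes -0.32). None was called (0.13% of all genes), with Irf7 at -5.86 (SE 1.77, edgeR adjusted p = 0.16), Ifit2 at -4.47 (SE 1.44, edgeR adjusted p = 0.20) and Mx1 at -6.29 (SE 2.32, edgeR adjusted p = 0.27), and 4 had an unadjusted p under 0.05 (10.8% of all genes). DESeq2 called Irf7, Ifit2 and Mx1. In simulated data for control at 10 days against healthy rats, DESeq2 called 37 unchanged genes in brain and 465 in plasma. The share of all genes it called is not given for the tests of this difference. Its calls in them are therefore not read as a difference between the tissues.

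At 4 days 0 were called (0.159%), 2 had an unadjusted p under 0.05 (10.3%), and DESeq2 called 1, Usp18, which had no counts in the brain control group. At 31 days 0 were called (0.0177%), and 2 of the 8 had an unadjusted p under 0.05 (10.1%), among them Isg15 with 1 count in healthy brain. Oasl, with 0 counts in healthy brain and outside the 8, also passed unadjusted. DESeq2 called none. With the 3 days averaged 0 were called (0.472%), 3 had an unadjusted p under 0.05 (9.28%), and DESeq2 called 2. For hNSCs against control over the 3 days 0 were called (0.0413%), 1 had an unadjusted p under 0.05 (6.85%), and DESeq2 called 1, again Usp18, which had no counts in the brain hNSCs groups of 4 and 10 days.

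The levels also differed between the 2 kinds of EV. Over the 7 groups, 6 of the 8 genes that passed the filter in brain were called higher in plasma-derived than in brain-derived EVs. Of all genes, 54.3% were called and 25.3% were called higher in plasma. With Oasl, which did not pass that filter, 7 of the 9 were called (edgeR adjusted p between 1.8e-09 and 0.00015). This comparison was added after the values had been seen. Irf7 was higher by a log2 fold change of 4.40 (SE 0.49), Isg15 by 5.14 (SE 0.73), Ifit3 by 4.03 (SE 0.54), Ifit2 by 3.49 (SE 0.41), and Mx1 by 2.86 (SE 0.60). Usp18 had no counts in 3 of the 7 brain groups and Oasl in 5 of 7, so that their fitted values depend on how 0 is handled, with 5.12 and 8.78 in edgeR, 10.8 and 7.10 in DESeq2 and 1.26 and 1.45 in limma on log2(FPKM + 1). Oasl passed the filter of this comparison through its plasma levels, so its call is no evidence of a difference.

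Stat2 (0.08, SE 0.29, edgeR adjusted p = 1) and Mx2 (0.51, SE 0.47, edgeR adjusted p = 0.42) were not called, nor did DESeq2 call them, but limma on log2(FPKM + 1) called both higher in plasma (1.40, adjusted p = 1.2e-09, and 1.15, adjusted p = 3.1e-05). Within a rat, plasma exceeded brain in 21 of 21 rats for Irf7, 20 for Ifit3, 19 each for Isg15, Ifit2 and Oasl, 18 for Mx1, 16 for Usp18, 12 for Mx2 and 9 for Stat2 in CPM. In FPKM it did so in 17 rats for Mx2 and 19 for Stat2. Brain and plasma differed in the share of counts on annotated genes and in their cells of origin, and these cannot be told apart from the kind of EV.

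Leaving out single libraries changed 3 of these calls. Usp18 was lost without the third plasma library of the control group or of the hNSCs group at 4 days, which are the only plasma libraries of their groups with counts of Usp18. Stat2 was called higher in plasma in 10 of 42 such fits and Mx2 in 8 of 42, with log2 fold changes up to 0.80 and 1.28. For Stat2 these were the fits without the brain libraries of healthy rats 1 and 3, control rat 2 of day 10, hNSCs rat 1 of day 4, hNSCs rat 2 of day 10 and hNSCs rat 2 of day 31, or the plasma libraries of control rat 1 of day 4, control rat 2 of day 10 and control rats 1 and 2 of day 31. For Mx2 they were those without the brain libraries of healthy rat 3, control rat 2 of day 4, control rat 2 of day 10, hNSCs rat 1 of day 4 and hNSCs rat 2 of day 10, or the plasma libraries of control rat 2 of day 4, control rat 1 of day 31 and hNSCs rat 1 of day 4. The other 6 genes were called in all 42, among them Oasl, which entered through its plasma levels.

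The order of the genes by level was set on FPKM, the authors' values scaled by transcript length and by the reads of the library. In plasma Irf7 led with a median of 40.8 FPKM over 21 libraries, ahead of Ifit3 at 18.4 FPKM, which it exceeded in 17 of 21 libraries. Isg15 at 9.98 FPKM and Mx1 at 6.05 FPKM did not separate, since Isg15 was the higher in 10 of 21. Stat2 at 4.37 FPKM and Ifit2 at 4.00 FPKM crossed as well, with Stat2 the higher in 7 of 21. Mx2 at 2.43 FPKM, Usp18 at 2.03 FPKM and Oasl at 1.96 FPKM were the lowest, and Usp18 exceeded Oasl in 9 of 21.

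In brain the order was another. Stat2 led at a median of 0.740 FPKM, above Mx2 at 0.392 FPKM in 16 of 21 libraries, followed by Irf7 at 0.376 FPKM, Mx1 at 0.266 FPKM, Ifit3 at 0.182 FPKM and Ifit2 at 0.0783 FPKM. This order pools groups that differ, and in the control group at 10 days the median was 2.69 FPKM for Irf7 and 0.909 FPKM for Mx2 against 0.658 FPKM for Stat2. Mx2 exceeded Irf7 in 13 of 21, Mx1 exceeded Ifit3 in 12 of 21 and Ifit3 exceeded Ifit2 in 12 of 21, so these neighbors did not separate. The median of Isg15, Usp18 and Oasl was 0. FPKM is taken relative to all reads, not only to those on annotated genes as the CPM above.

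The genes varied together across the libraries, apart from Stat2. Each gene was set against the mean of the others, standardized in log2 CPM, over the 21 libraries of a tissue, which share their groups and differ in depth. In brain Spearman's rho was 0.79 for Mx1, 0.76 for Mx2, 0.76 for Ifit2, 0.65 for Irf7, 0.52 for Isg15, 0.46 for Usp18, 0.46 for Ifit3 and -0.09 for Stat2. In plasma it was 0.76 for Irf7, 0.75 for Oasl, 0.75 for Mx1 and 0.19 for Stat2, with the others between 0.44 and 0.61. In plasma the mean of the genes had a rho of 0.72 with the summed B cell markers, 0.71 with the plasmacytoid dendritic cell markers, 0.65 with the red cell markers, 0.64 with the T cell markers and 0.02 with the neutrophil markers. In brain rho was 0.54 with the astrocyte markers, 0.48 with the platelet markers and 0.45 with the plasmacytoid dendritic cell markers. It was 0.44 each with the neutrophil and red cell markers and 0.31 with the microglia and macrophage markers. With the share of counts on annotated genes it was 0.30. The plasmacytoid dendritic cell list shares Bst2 and Irf8 with the wider interferon list. In both tissues its rho is thus partly one between interferon pathway genes.

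The genes outside the 9 that were most like their mean in brain, by Spearman's rho over 21 libraries, were Bst2 (0.84), which encodes the membrane protein tetherin, Trim34 (0.83), Dtx3l-2 (0.82), Lat2 (0.82), Utp6 (0.81), C4b (0.80), a complement component, LOC100909860 (0.80) and Sncaip (0.80). In plasma they were LOC100909950 (0.83), RGD1304810 (0.82), XAF1 (0.81), Pttg1 (0.79), Hist2h4 (0.79), Oasl2 (0.79), a relative of Oasl, Ms4a1 (0.78), a B cell marker, and Prkcd (0.77). Bst2 and Trim34 in brain and XAF1 and Oasl2 in plasma belong to the wider interferon list. The list had a median rho of 0.47 over 94 genes in brain (all genes 0.10) and of 0.35 over 105 genes in plasma (all genes -0.03).

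**Figure D4:**
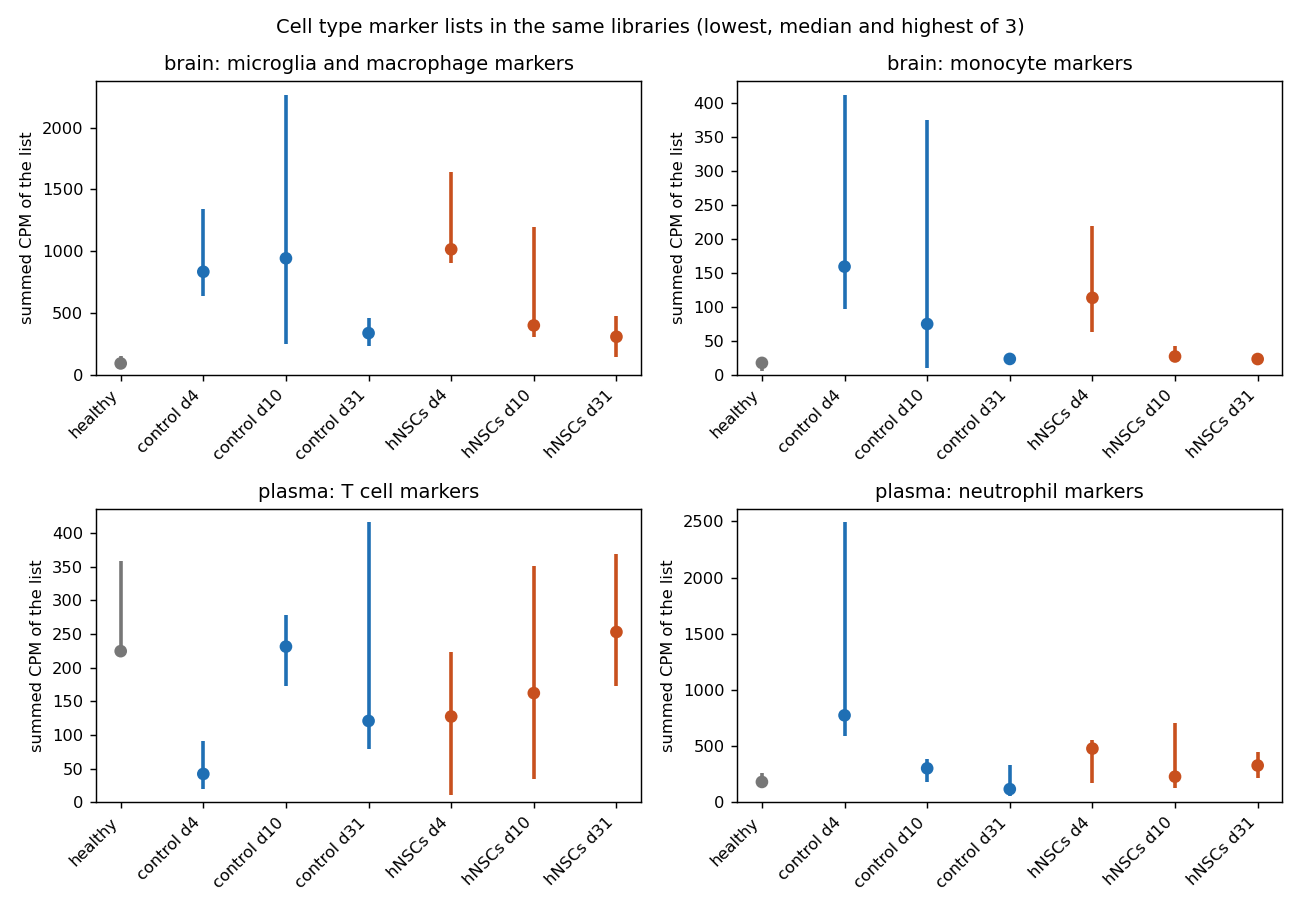
Summed CPM of 4 cell type marker lists, with the 7 groups on the horizontal axis, the point at the median and the bar from the lowest to the highest of 3 rats. Microglia and macrophage markers in brain range from 245 to 2268 CPM in the control group at 10 days, against 83.3 to 147 CPM in healthy rats, and T cell markers in plasma are low in the control group at 4 days.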

How the data were processed

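Rat EV mRNA was analyzed in 42 libraries, grouped by tissue, treatment and day from the sample labels, and the 2 libraries of each animal were joined through its number. For plasma libraries the extraction protocol names serum. The authors prepared stranded total RNA libraries without unique molecular identifiers, used Bowtie2 for alignment (genome Rnor_6.0) and StringTie for transcript assembly. The deposited counts are whole reads per gene without normalization, and the counting tool and strand setting are not given in the sources used here. FPKM was computed by the authors with StringTie and is used as deposited. Reads of relatives, of overlapping genes and of antisense genes may therefore be counted on the wrong gene. Unannotated rows entered 1 alternative, and the miRNA libraries were not used here.

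For annotated genes, tests on the counts used edgeR 4.0.16 under R 4.3.3 (TMM factors, filterByExpr, quasi-likelihood tests, 7 groups in 1 model per tissue, and 1 model of both tissues for differences between them), and p-values were adjusted by Benjamini-Hochberg over all genes tested: 14515 in brain, 14720 in plasma and 16945 in both. A gene was called at an adjusted p under 0.05 and over 1.5-fold. Alternatives were DESeq2 1.42.0, limma 3.58.1 on log2(FPKM + 1) or log2(FPKM + 0.1), other filters and scaling, the replicate or rat as a block, and each library left out. The pooling of control with hNSCs libraries, the removal of the brain library with the lowest annotated share and the comparison of tissues over all groups were added after seeing the data. The tests were also run on simulated data with known changes, set in the control group at 10 days against healthy rats. There edgeR called 2 unchanged genes in brain and 0 in plasma, and DESeq2 called 37 and 465. Of the genes changed 4-fold, edgeR called 15.4% in brain and 6.15% in plasma, and DESeq2 24.6% and 23.1%. Most changes of that size were thus missed. Figures were drawn with matplotlib 3.10.9, and tables were made in Python 3.11.15 with scipy 1.17.1, pandas 2.3.3 and numpy 2.4.6.

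Replicates are separate rats. No 2 libraries of a group were identical or within counting error of each other (lowest chi-square per degree of freedom 15.9). The numbers of the replicates were taken to pair samples where the deviations of all 3 pairs from their group means correlated over 0.1, which held only for brain hNSCs and control at 31 days (r 0.25 to 0.33). The brain and plasma libraries of 1 rat are paired by the animal.

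The 9 genes, the wider interferon list and the marker lists were chosen with earlier results of these data known. All 9 are named, and of the wider list the called genes, the ligands in the table and the pathway genes described by role. The genes most like the 9 are the 8 with the highest rho per tissue.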

Additional observations from a re-analysis of the deposited data

How the results depend on the processing

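Across 26 counts of called genes, 534 of 601 values under an alternative left 0 of the interferon response genes called, and 16 lay beyond 1.5 times the reported count. In brain at 10 days, the control group against healthy rats gave 3 called genes with DESeq2, where 613 of all genes were called. Without a filter on low counts edgeR gave 1 (Irf7), where 105 of 16992 genes were called. The main edgeR fit called 83 of all genes. With each library left out, the count of interferon response genes called in this comparison ran from 0 to 2. In brain at 31 days it was 8 with limma on log2(FPKM + 0.1), 7 on log2(FPKM + 1) and 7 without a filter, scales on which the median of all genes was 1.74, 0.69 and 0.57. There the log2 fold change of Stat2 turned from -0.37 to 1.67, 0.91 and 0.91. The test of days in the brain control group gave 4, 4 and 4 with these 3 settings and 0 to 1 with each library left out. Since FPKM is relative to all reads, the 4 calls are not read as a change with the day. Over the 3 days together, control against healthy gave 1 with DESeq2 and 2 with limma on log2(FPKM + 0.1). For the difference between plasma and brain, DESeq2 gave 1 at 4 days, 3 at 10 days and 2 over the 3 days, and 1 for hNSCs against control. The share of all genes that it called there is not given. Plasma against brain over all groups gave 7 with Oasl included, and 6 to 9 with each library left out and 9 with limma. The cause of these changes was not tested.

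The replicate number as a block left the call unchanged in 20 of 20 results. Among these, brain hNSCs against control at 31 days, the comparison whose numbers pair the samples, had 0 called genes. The rat as a block left the call unchanged in 6 of 6, with 7 genes, Oasl included, called for plasma against brain. With control and hNSCs libraries of the same day pooled against healthy rats, 0 of the interferon response genes were called. In brain these fits called 659 of 14515 genes at 4 days, 51 at 10 days, 12 at 31 days and 29 over the 3 days. In plasma they called 33, 0, 0 and 28 of 14720 genes. Irf7 in brain at 10 days had a log2 fold change of 6.23 (edgeR adjusted p = 0.096). Depth limits the brain values, since the shallowest library holds 569136 counts on annotated genes, and a gene at a few CPM then rests on a handful of reads.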
